A study of Mus musculus with 3 samples.

Results

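The regions described here lay far from every named olfactory receptor promoter and were found with RLM-RACE products amplified without nested PCR. They were regions of the High Coverage 1 array whose nearest edge was over 10 kb from each of the 1085 positions in the authors' table of receptor promoters, and that met a High Coverage 2 region over 1 bp or more but no Stringent region. The rule left 615 members of 7266 High Coverage 1 regions, or 8.46%, and they lay on all 20 tiled chromosomes. All 3 arrays carried total RNA from olfactory epithelium of adult C57/Bl6 animals, 6 to 8 weeks old, with 5 mice pooled per sample and no treatment named in the labels. In each sample cDNA was made with degenerate primers against receptor coding sequences. Stringent, 1 array, carried a product of nested PCR, and High Coverage, 2 arrays, carried products of PCR without nesting. The file headers name the High Coverage 1 input female and the High Coverage 2 input male, so that sex and array cannot be told apart.

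Olfactory receptors are a very large family of receptor proteins for odorants, and each sensory neuron of the olfactory epithelium expresses very few of their genes. RLM-RACE ligates an RNA oligonucleotide to the 5′ end of decapped mRNA, so that the amplified product starts at the cap. Degenerate primers match motifs shared by many receptors and can also anneal elsewhere. Nested PCR amplifies a second time with primers that lie inside the first product, which favours products that hold both primer sites. The array also tiled sequence outside receptor promoters.

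The score of a region or probe is the authors' MAT score, which sets the brightness of probes in a short window against what their base composition predicts. It is relative to the probes of the same array, so scores are read within an array and are not set across arrays. With 1 Stringent array against 2 High Coverage arrays, and scores relative to each array, no test over arrays was run, and regions of 1 array are not replicates. The members were chosen by being called on each High Coverage array and not on Stringent, so that their scores are given as a description. Exact Clopper-Pearson intervals (95%) cover counting error only. Coordinates are mm9, as the authors' files give them. The bases of the regions are not printed, since no genome of that build was used here.

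The scores of the members began at the threshold and stopped well short of the highest High Coverage 1 region score, 51.49. The region score had a median of 3.94 (quartiles 3.10 and 5.81) and ran from 2.53, the authors' threshold on High Coverage 1, to 29.76. A score under 4 was found in 321 of the 615 members, or 52.2% (48.2 to 56.2), and a score of at least 10 in 52, or 8.46% (6.38 to 10.9). The median length was 162 bp (quartiles 133 and 206) and the longest member had 633 bp. Score and length rose together across members (Pearson's r = 0.753, Spearman's rho = 0.676, n = 615 regions of 1 array, which share its probes). Over all High Coverage 1 regions the median score was 3.51 and the median length 156 bp, 62.3% scored under 4 and 10.1% at least 10, and 3.25% had at least 500 bp against 2.76% of the members.

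The shortest members were pieces of longer stretches. All 66 members under 124 bp had another High Coverage 1 region next to them at 1 bp, and a further 66 members were exactly 124 bp long. A neighbouring member at 1 bp was found for 136 members, or 22.1%. Joined at that distance, the 615 members made 537 stretches, the longest of 675 bp, and their summed length was 113 kb or 8.27% of the High Coverage 1 list.

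The High Coverage arrays placed most members, but not all, at nearly the same edges. The highest-scoring overlapping High Coverage 2 region covered a median of 95.6% of a member, and its edges differed by a median of 0 bp at both ends (quartiles -11 and 15 bp at the start, -10 and 19 bp at the end). Both edges lay within 50 bp for 411 members, or 66.8% (63.0 to 70.5), and were identical for 92. At the extremes the start differed by -904 to 314 bp, the end by -326 to 1351 bp, and the overlap fell to 1.61% of a member. Edges were not compared for other shared regions. The members overlapped 618 distinct High Coverage 2 regions, of which 611 had no Stringent region either. The median score of the overlapping region was 4.42, and its log2 score had r = 0.616 and rho = 0.491 with that of the member. Both arrays read the same probes, so this correlation is across regions and has no test.

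**Figure D1:**
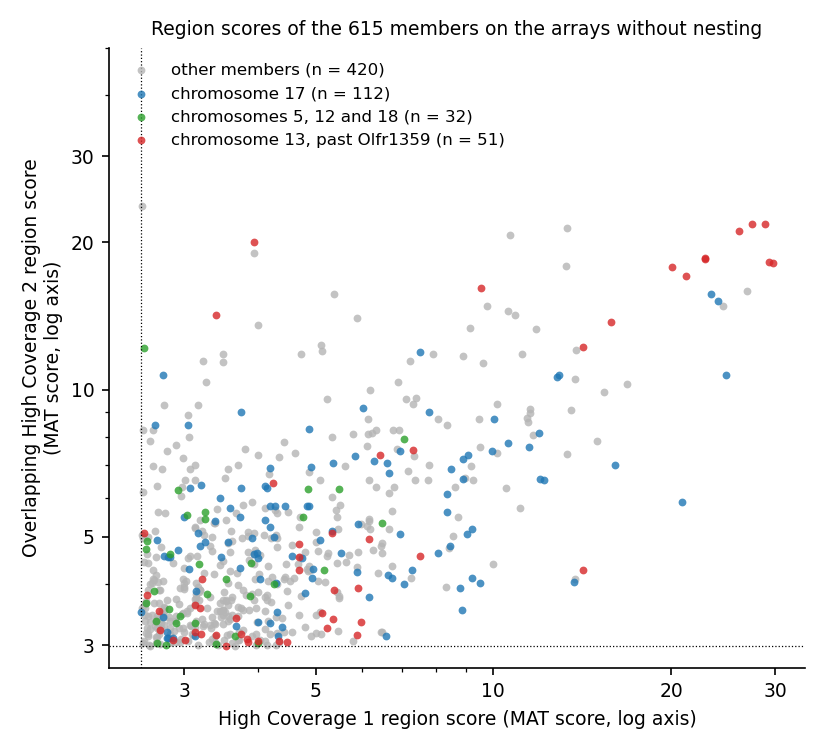
Region score on High Coverage 1 (horizontal axis) against the highest score of the overlapping High Coverage 2 regions (vertical axis), both MAT scores on log axes, with 1 point per member; dotted lines mark the authors' thresholds of 2.53 and 2.99. Most points sit in the low corner, and 9 points of chromosome 13 past Olfr1359 lie above 17 on both axes.

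The rule can be set beside the same calls close to promoters. Of the 1663 far High Coverage 1 regions without a Stringent region, 37.0% (34.7 to 39.4) had a High Coverage 2 region, against 51.8% (50.1 to 53.5) of the 3442 regions within 10 kb of a position. With a Stringent region the shares were 78.4% (72.8 to 83.3) of 250 far regions and 81.5% (79.7 to 83.2) of 1911 near ones. Over all High Coverage 1 regions the share was 57.1%, and 33% were shared and had no Stringent region, 32.1% of the far ones and 33.3% of the near ones. These shares rest on lists that the rule used and are read no further.

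Members stood between the other far regions in score. The 1048 far regions that High Coverage 1 alone had showed a median score of 3.06 and a median length of 139 bp, and 1.34% of them scored at least 10. In the 196 far regions found on all 3 arrays the median was 6.05, the length 210.5 bp and the share 26.5%. The 1784 shared regions within 10 kb of a position and without a Stringent region had a median score of 3.64 and the same median length as the members. Length separated these near regions from the members only at the top, with 6 of 1784 (0.336%) of at least 500 bp, against 17 of 615 (2.76%). Of those 17 members, 11 lay in 1 stretch of chromosome 13, past Olfr1359.

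Signal on the Stringent array was low inside the members but lay above that of their flanks. The highest Stringent probe score inside a member had a median of 0.55 (quartiles -0.03 and 1.23), at the 89.0 percentile of all scored Stringent probes. This percentile sets the highest of several probes against single probes, which raises it. Around the centres of the members, the median probe score of the 50 bp on each side was -0.02 and -0.05 on Stringent, and it was -0.72 at a distance of 550 to 600 bp on both sides. On High Coverage 1 the same medians were 2.79 and 2.81 in the centre, and on High Coverage 2 they were 3.01 and 3.07.

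No member held a probe at the authors' Stringent threshold of 2.52. The rule takes no member with a called Stringent region, which largely fixes this in advance, although such a call asks for at least 5 probes. Other High Coverage 1 regions without a Stringent region also stayed under that threshold. Their highest Stringent probe scores were 2.40 (far, High Coverage 1 alone), 2.51 (near, shared) and 2.51 (near, High Coverage 1 alone). The highest in a member was 2.51, and 45 members, or 7.32% (5.39 to 9.67), reached at least 2. That share was not computed over all High Coverage 1 regions. Above the 90th percentile of Stringent probes were 254 members, or 41.3%, against 25.4% of the far regions of High Coverage 1 alone and 51.8% of the shared near regions without a Stringent region. Over all High Coverage 1 regions, which include those with a Stringent region, the share was higher, at 56.0%. A highest score rises with the number of probes, and the median number of scored probes per region was 17, 14, 26 and 25 in the same order. These shares were not adjusted for it. A Stringent region lay within 500 bp of 63 members, or 10.2% (7.96 to 12.9), and the median distance to the nearest one was 11972 bp over the 611 members on chromosomes with one. These distances were not computed for all High Coverage 1 regions, so they are not read as a trait of the members.

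**Figure D2:**
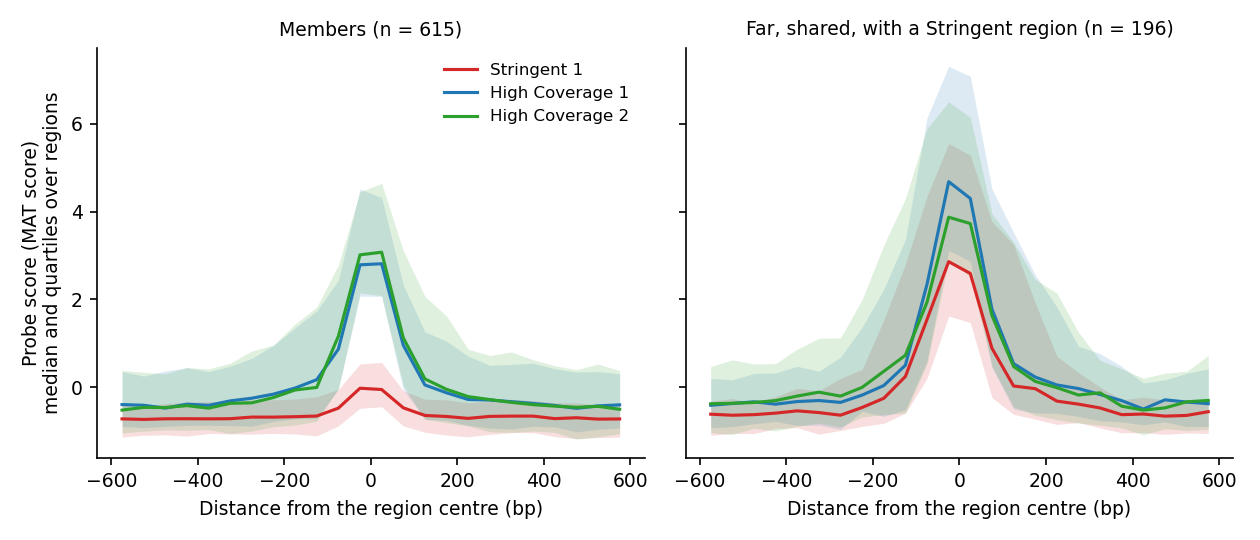
Median probe score (MAT score, lines) with quartiles over regions (bands) in bins of 50 bp by distance from the region centre, for the 615 members (left) and the 196 far regions with a Stringent region (right). The members have a peak near 3 on both High Coverage arrays and a Stringent median that is under 0 at the centre.

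**Figure D3:**
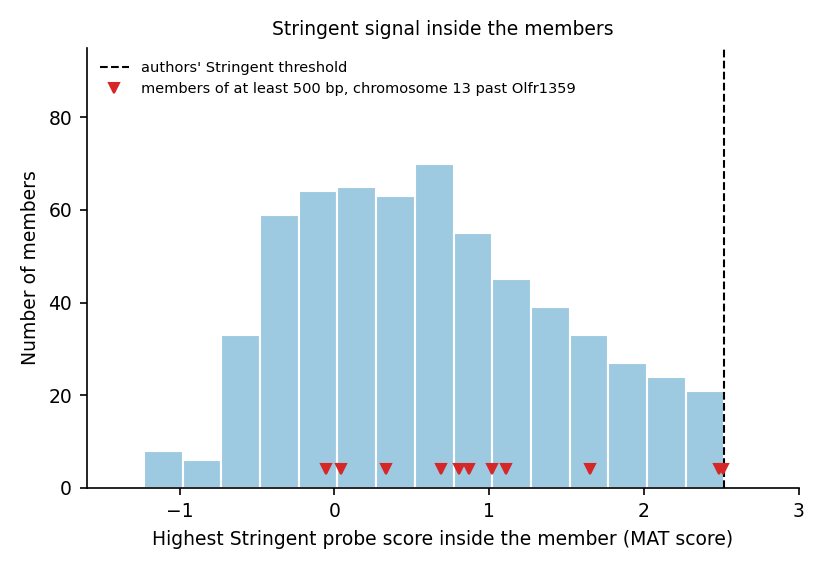
Number of members (vertical axis) by the highest Stringent probe score inside the member (MAT score, horizontal axis), with the authors' threshold of 2.52 as a dashed line and the 11 members of at least 500 bp past Olfr1359 on chromosome 13 as triangles. The median is 0.55, the upper quartile 1.23, and 2 triangles lie next to the threshold at 2.49 and 2.51.

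Most members lay on few chromosomes. Chromosomes 7, 13 and 17 held 369 members, or 60.0% (56.0 to 63.9), with 151, 106 and 112. The array tiled these chromosomes to very unlike extents away from promoters, and per 10000 scored probes over 10 kb from each position the numbers were 7.67, 6.33 and 35.5. Over the whole array it was 7.48, and without chromosome 17 it was 6.36. Chromosome 12 reached 52.8, on 4 members and 757 probes, and 3 of these 4 had another member next to them at 1 bp. These densities count scored probes only, and members also lay where few probes had a score. No scored probe lay inside 3 members, and 590 of 615 held one at the High Coverage 1 threshold. Whether missing scores shift the densities was not tested.

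**Figure D4:**
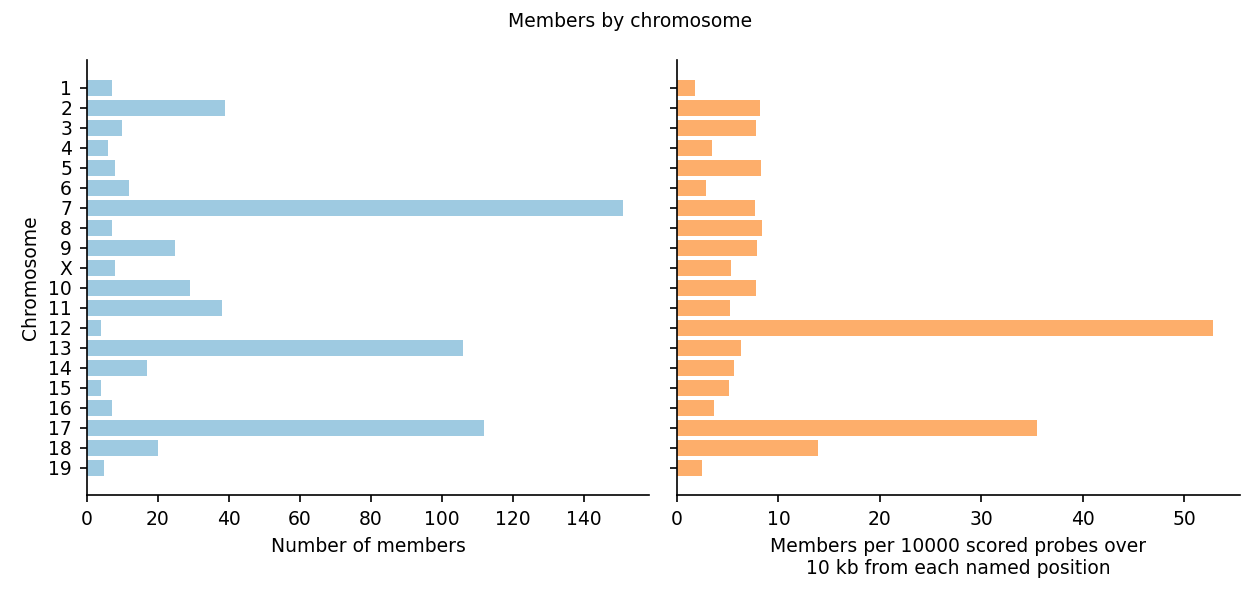
Number of members per chromosome (left) and members per 10000 scored probes that lie over 10 kb from each named position (right). Chromosome 7 has the most members, 151, at a density of 7.67, and chromosome 17 has 112 at a density of 35.5.

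The members that ranked highest in both lists lay on chromosome 13, most of them in 1 stretch past the receptor Olfr1359. In the gene table of another build (GRCm38.p6), used for names and order, the 67 genes that follow Olfr1359 up to the first vomeronasal receptor gene comprise 24 genes with histone symbols and 34 tRNA genes. Clustered histone genes are mostly intronless and short, and they encode the core and linker proteins of the nucleosome. The 24 genes had a median length of 476.5 bp, and 20 were under 600 bp. Which member lies in which gene was not tested, since the builds differ.

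Past Olfr1359 the tiled block ran on for 722 kb and held 51 members, 20 far High Coverage 1 regions with a Stringent region and 82 of High Coverage 1 alone. Of the 17 members of at least 500 bp in the whole list, 11 lay there, and of the 52 that scored at least 10, 12 did, while 14 lay on chromosome 17. These 11 were 527 to 633 bp long, scored 14.19 to 29.76 on High Coverage 1 and overlapped High Coverage 2 regions that scored 12.25 to 21.79. Their highest Stringent probe scores ran from -0.05 to 2.51. The other members of the stretch were weaker, and over all 51 the median score was 4.68 and the median length 182 bp, against 3.90 and 162 bp in the 564 members elsewhere.

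By the lower of their ranks in both High Coverage lists, the 10 leading members were all on chromosome 13, 9 of them past Olfr1359. The first was chr13:21845815-21846448, 56035 bp from the position of Olfr1359, with a highest probe score of 1.02 on Stringent, against 28.9 and 21.8 on the High Coverage arrays. It was also the longest member, and its edges on High Coverage 2 differed by 5 bp at the start and 0 at the end. In the same order of arrays, the second, chr13:21879309-21879836, had 0.69, 27.4 and 21.8. The third, chr13:21813890-21814419, had 0.80, 26.0 and 21.1. On the High Coverage arrays these values were all above the 99.8 percentile of scored probes, and on Stringent they were between the 89.8 and the 91.0 percentile.

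Some of these members came in close pairs. At chr13:21924859-21925404 the scores were 2.49, 29.8 and 18.2, and at chr13:21925491-21926095, which starts 87 bp further on, they were 0.87, 22.8 and 18.5. A second pair, chr13:22134309-22134868 and chr13:22134976-22135571, had 2.51, 29.3 and 18.2 against 0.34, 21.2 and 17.1. In both pairs the first member stood just under the Stringent threshold and the second lay well below it. The tenth member, chr13:21730442-21730791, lay 20948 bp upstream of Olfr1362, with -0.83, 13.3 and 21.5.

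Stringent regions lay beside the 11 long members past Olfr1359, at their lower-coordinate side. For all 11 the nearest Stringent region ended before the member started, at a median distance of 402 bp (150 to 1770 bp), and within 500 bp for 6. They were 8 distinct Stringent regions, which scored 2.63 to 10.77 on that list. Beside chr13:21845815-21846448 it was a Stringent region of 124 bp at 305 bp. Beside chr13:21924859-21925404 it was one of 399 bp at 799 bp, with a score of 10.53. For the tenth leading member, chr13:21730442-21730791, which is not among these 11, the nearest Stringent region lay on the other side, at 315 bp. The side was looked at after these values had been seen. It was not counted for other members or other far regions, so it is not read as a trait of the long members.

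Chromosome 17 held many members among its receptors. Of its 112 members 108 lay in 1 block of 1385 kb with 42 named positions, which belongs to the receptor cluster beside the major histocompatibility complex. Their neighbours at 1 bp were frequent, and the 112 members made 81 stretches once joined, or 25.7 per 10000 far probes against 6.53 over all chromosomes. Shared regions without a Stringent region were also dense within 10 kb of the positions of chromosome 17, at 25.2 per 10000 near probes against 13.1 over the array. Far regions with a Stringent region were dense there too, at 11.4 per 10000 far probes against 2.38, as were far regions of High Coverage 1 alone, at 19.4 against 12.7. Near regions with a Stringent region had 8.36 against 11.4.

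Of the 26 groups of 5 or more members, 8 lay on chromosome 17 and 11 on chromosome 7. Here a group holds members with gaps of at most 10 kb, and there were 299 groups. A group of 2 or more held 453 members, or 73.7%, and 162 members stood alone. At gaps of at most 1 kb the share was 41.1%. These shares count the 136 members with a neighbouring member at 1 bp as separate members. The share was not computed for other far regions, so grouping is not read as a trait of the members. The largest group, chr17:37935915-37949070, had 13 members with scores of 2.77 to 9.21, and 8 of these had a member next to them at 1 bp. Highest Stringent probe scores in it had a median of 0.39 and reached 1.46. It lay between the positions of Olfr123 and Olfr125, and Olfr124, which the gene table lists between them, has no named position.

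The next largest group of the chromosome, chr17:38251303-38272670, had 12 members that scored 2.80 to 9.21. It lay between Olfr131 and Olfr133, with Olfr132 in between and without a position. The group chr17:37491730-37504712 had 10 members and the highest score of the chromosome, 24.75, and 8 of its members had a member next to them at 1 bp. It lay between Olfr103 and Olfr107, among 5 receptor pseudogenes without a position. A score of 24.04 was reached at chr17:38213934-38214240, between Olfr130 and Olfr131, where no receptor is listed without a position, and a Stringent region lay 21 bp from it.

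Receptors without a named position were therefore counted over the whole array. Between neighbouring named receptors under 1 Mb apart there were 467 intervals with far probes, and they held 219 members. The 213 intervals that hold a receptor gene or pseudogene without a position had 56.0% of the far probes and 62.1% of these members. Their density was 8.79 members per 10000 far probes, against 6.84 in the other 254 intervals. Split by kind, it was 9.88 in the 79 intervals that hold a protein-coding receptor without a position and 6.46 in the 134 that hold pseudogenes alone. On chromosome 17 alone the order was the reverse, with 41.1 against 63.5, and without chromosomes 13 and 17 the densities were 4.56 and 4.45. No test was run on these intervals, which differ in length and tiling. Some of them have few scored probes for their members. On chromosome 17 the interval from Olfr118 to Olfr119, without an unplaced receptor, had 5 members on 96 far scored probes.

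Blocks without any named position held 260 members, or 42.3% (38.3 to 46.3). A block here ends where probes are over 10 kb apart, which gave 275 blocks, 101 of them without a position. The share was 88.1% where blocks ended at probe gaps over 1 kb, and 32.7% at 100 kb. The density of members in blocks without a position was 8.12 members per 10000 far probes, against 7.07 in blocks with a position. Members in blocks without a position scored a median of 3.54 with a median length of 154 bp, against 4.34 and 166 bp. Of the 260, 126 were on chromosome 7.

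A series of 14 blocks on chromosome 7 between 8 and 10 Mb held 114 members on 1399 kb of tiled sequence, or 8.15 per 100 kb, and no named position. They ran from 8143352 to 9832281. No member there scored at least 10, 87 scored under 4, the highest score was 7.34 and the median 3.27. The overlapping High Coverage 2 regions had a median score of 3.65 and reached 14.03. The highest Stringent probe score inside them had a median of 0.83. They lie between Olfr1350 and Olfr291, and among the 2416 genes that the table lists between these receptors, 151 have symbols of type 1 vomeronasal receptors (Vmn1r) and 64 of type 2 (Vmn2r), the pheromone receptor families. Whether the blocks hold any of them was not tested.

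A further block on chromosome 7, chr7:31227665-31256887, held 8 members on 29.2 kb, with scores from 2.68 to 24.43. On chromosome 10 the block chr10:23638212-23838084 held 16 members that scored up to 4.88, with no named position on it. It lies before the first named receptor gene of that chromosome, Olfr1357, and 16 of the 1142 genes listed before Olfr1357 have symbols of trace amine-associated receptors (Taar), most of which are amine-sensing receptors of the nose. Whether the block holds any of them was not tested. On chromosome 6, chr6:6831443-6832020 was the 1 member among 16 far High Coverage 1 regions of its block. It was 577 bp long with highest probe scores of 26.9 and 15.9 on the High Coverage arrays and 0.91 on Stringent.

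Chromosomes 5, 12 and 18 have no named promoter, and 32 members, or 5.20% (3.59 to 7.27), lay on them. The gene table lists 3 receptor pseudogenes each on chromosomes 5 and 12, no receptor gene on chromosome 18 and no protein-coding receptor on any of them. None of the 32 members scored at least 10 on High Coverage 1, 25 scored under 4, and the median length was 149.5 bp. With the higher-scoring 50% of each High Coverage list 7 such regions were left, and without High Coverage replicate 1 or 2, where no overlap was asked, there were 52 and 76.

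On chromosome 18 a block of 104 kb, chr18:37080507-37184934, held 20 members, or 19.2 per 100 kb, in groups of 11 and 9. The highest on High Coverage 1, chr18:37127325-37127535, had a highest probe score of 2.18 on Stringent and 6.49 and 5.33 on the High Coverage arrays. The highest score of an overlapping High Coverage 2 region was 12.16, at the member chr18:37108945-37109069, whose own score was 2.56. A second block on that chromosome, of 3.96 kb, had 1 far High Coverage 1 region and no member. On chromosome 12 a single block of 3.98 kb held 4 members, and the highest, chr12:4133314-4133583, had -0.47, 7.06 and 7.91. All 4 had Stringent probe scores under 0, with a highest value of -0.20. On chromosome 5, 6 members lay in a block of 67.7 kb and 2 in one of 3.06 kb, and the highest, chr5:13378469-13378686, had 1.47, 5.17 and 4.28.

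**Figure D5:**
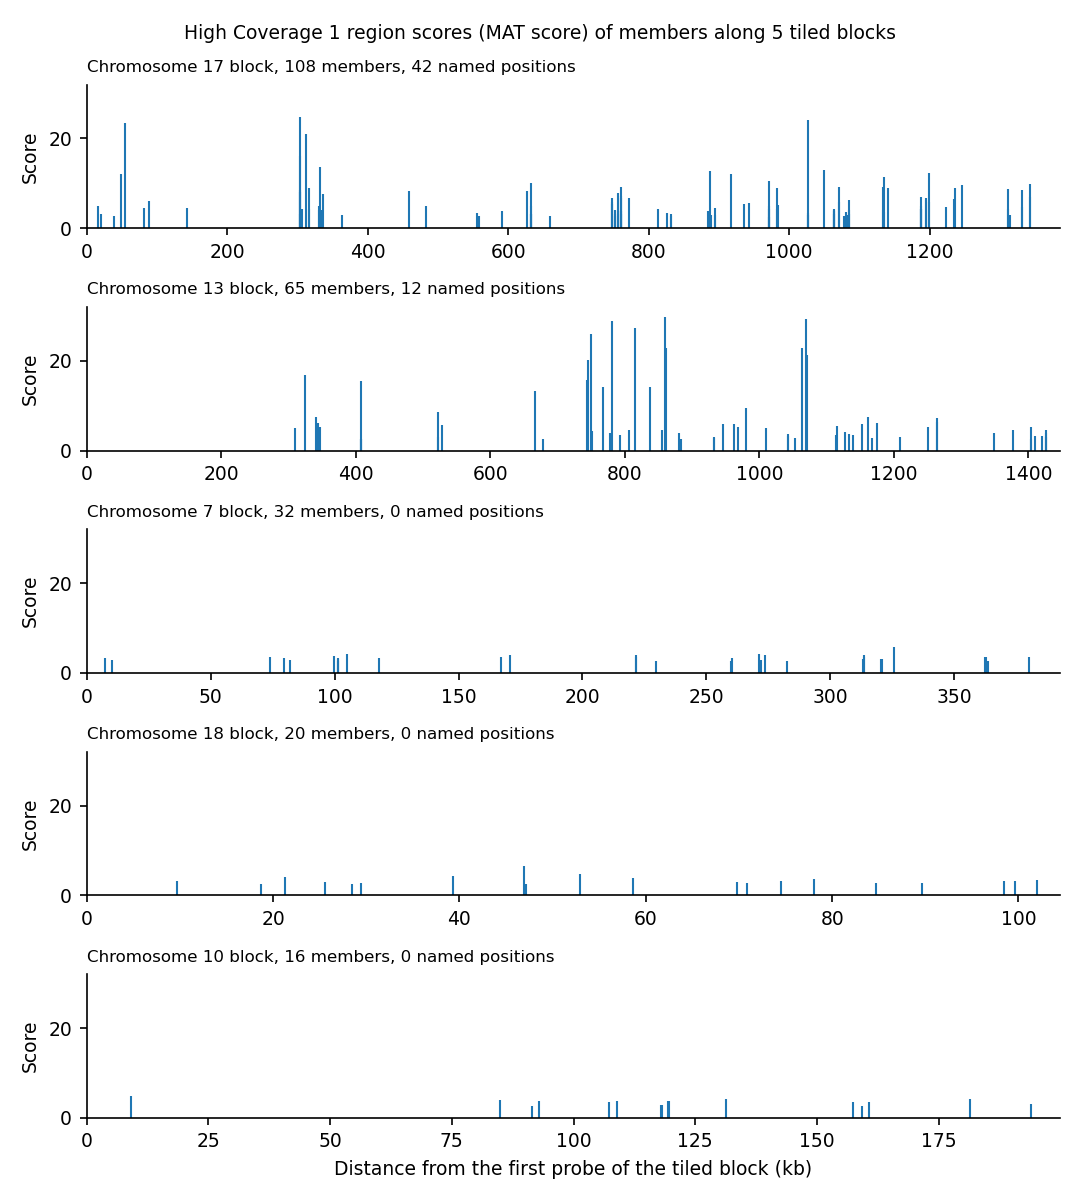
High Coverage 1 region score (MAT score, vertical axis) of each member by its distance from the first probe of its tiled block (kb, horizontal axis), in the 5 blocks with the most members. In the chromosome 13 block the tall lines, up to 29.76, gather in the part past Olfr1359, while the members of the chromosome 7, 18 and 10 blocks stay under 7.

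Members were found at every distance from the nearest position. The distance had a median of 89759 bp over the 583 members on chromosomes with a position, with quartiles of 24037 and 1865824 bp. Density was 9.85 members per 10000 probes between 10 and 20 kb, 9.57 between 20 and 50 kb, 4.40 between 50 and 100 kb, 5.44 between 100 kb and 1 Mb, and 7.79 beyond 1 Mb. Up to 10 kb, where the rule takes no members, the same kind of region had 13.1. Members within 20 kb lay upstream of their nearest position in 57 cases and downstream in 59, and between 20 and 50 kb in 60 and 65, so that the sides were close to even. Farther away most lay downstream, with 21 upstream and 40 downstream from 50 to 100 kb, 4 and 87 from 100 kb to 1 Mb, and 21 and 169 beyond 1 Mb. Over all distances 163 of 583 members, or 28.0%, lay upstream. Many of these share a nearest position. The 114 members of the chromosome 7 series between 8 and 10 Mb all lay beyond 1 Mb on the same side of Olfr1350. The 51 members past Olfr1359 on chromosome 13 all lay on the same side of that position. The side was not counted for all far regions or far probes, so it is not read as a trait of the members.

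The limit of 10 kb lay between these regions. Just inside lay chr2:85169245-85169379 at 10028 bp with a region score of 2.77, chr17:37745768-37745907 at 10064 bp with 2.80 and chr11:49278782-49278979 at 10182 bp with 5.22. Just outside lay regions at 9957, 9948 and 9943 bp with scores of 4.68, 5.60 and 3.98. The last of these, chr2:85169380-85169464, begins 1 bp past the end of the first, so the limit parted neighbouring pieces of 1 stretch. Among the 5 longest members, chr11:73891150-73891736 was the only one not in the top 10% of both lists. It had 586 bp, 21084 bp upstream of Olfr399, and its highest probe scores were 10.5 and 6.30 on the High Coverage arrays and 0.28 on Stringent.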

How the data were processed

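The authors hybridised 3 products to tiling arrays, and per the file headers computed a MAT score per probe from each array alone, using bandwidth 50, gaps up to 30, at least 5 probes and a natural log scale. Per the file headers, regions and their scores were called per array at 2.52 (Stringent, with another probe map), 2.53 and 2.99 (High Coverage 1 and 2), which stand for p-values of 1.75e-09, 1.72e-06 and 2.97e-07, so that the thresholds differ between lists. Positions are on mm9, according to the submitters' processing notes. No p-value or fold of single regions in the deposited lists entered a result.

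From 2313448 probes, a score of 0 on all arrays (5.42%) was read as no score. Highest scores were taken over scored probes inside a region. The number of arrays limits the precision. The gene table matched 1007 of 1085 positions by name. Members, lists and marks were chosen with earlier results of these data known. Members were named by rule: the 10 highest in both lists, the 5 longest, the 5 largest groups, the highest on chromosomes 5, 12 and 18, and the 3 on each side of the distance limit. The remaining ones were chosen after their values were seen. The rule was tested on simulated data, where all 90 planted members were recovered. Alternatives were other distances, overlaps, scores, gaps and arrays. Computation used pandas 2.3.3 and numpy 2.4.6 in Python 3.11.15, intervals came from scipy 1.17.1, and plots from matplotlib 3.10.9.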

Additional observations from a re-analysis of the deposited data

How the results depend on the processing

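The number of members, 615, stayed within 1.5 times at over 20 kb (499), with 50% overlap of both regions (527), with no Stringent region within 500 bp (552) and from the High Coverage 2 list (619). It moved to 1080 at over 5 kb and to 247 with the higher-scoring 50% of each list. Without High Coverage replicate 1 or 2, where no overlap was asked, it moved to 1237 and 1663. Medians were called moved past 1 SD between the High Coverage lists. The values of High Coverage 1 and 2 give that SD, so each median from High Coverage 2 was bound to be called moved. For the score, the SD also sets lists with unlike thresholds side by side. The median length moved to 166 bp with 50% overlap and with a probe above both thresholds, and to 207 with the higher scores. It moved to 157 from High Coverage 2 and 170 with the Stringent list left out. Without High Coverage replicate 1 or 2 it was 150 and 145. The median score moved to 6.14, 4.29 and 4.23 with the higher scores, from High Coverage 2 and without the Stringent list. Without High Coverage replicate 1 or 2 it was 4.03 and 3.24. The median highest Stringent score moved to 0.63 and 0.58 at over 5 and 20 kb, 0.59 with 50% overlap and 0.50 with the higher scores. It moved to 0.56 from High Coverage 2, 0.92 without the Stringent list and 0.58 with a probe above both thresholds. Without High Coverage replicate 1 or 2 it was 0.22 and 0.35. Gaps of 1 and 100 kb gave 467 and 126 groups with 41.1% and 92.0% of members in groups of 2 or more. Probe gaps of 1 and 100 kb gave 5217 and 73 blocks, with 88.1% and 32.7% of members in blocks without a position. In all, 32 of 67 alternative values stayed the same and 35 moved, the medians from High Coverage 2 among them. The cause was not tested. The requirement of a probe above both thresholds and closed region ends (616 members) were chosen after seeing the data. No paired analysis was possible because Stringent is 1 array and shares fewer than 2 replicate numbers with High Coverage. Stringent could not be left out as a replicate, and its thresholds and probe map differ from those of High Coverage.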
